A study of Mus musculus with 24 samples.

Results

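Esr1, the gene of estrogen receptor alpha, was read by 4 of the 55681 distinct probes on the arrays, and all 4 probes that carry this gene name were taken, each on its own. One of them, A_55_P2030883, was well above background on all 12 Top2b-/- arrays and on 6 of 12 wild-type arrays. The other probes, A_51_P474658, A_66_P138072 and A_52_P237077, stayed at background on nearly every array. The gene was chosen by the measured levels of the bright probe in the 2 genotypes and in wild-type cells at 16 h, so its levels by genotype, and its levels in wild-type cells at 16 h, are given as a description without a test.

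The series profiled primary cardiomyocytes of 6-week-old mice on a 129SvEv/C57BL/6 background. At 16 h the groups were Top2b-/- after doxorubicin, Top2b-/- after PBS, wild type after doxorubicin and wild type after PBS, with 3 arrays each, and the same 4 groups were repeated at 72 h. Top2b-/- denotes a cardiac specific deletion of Top2b, which encodes the beta isoform of DNA topoisomerase II, and doxorubicin, an anthracycline that poisons type II topoisomerases, was given once by intraperitoneal injection at 25 mg/kg. Live cells were isolated on a Langendorff apparatus, and 1 colour (Cy3) was hybridised per array. The labels used here name no Cre driver, no inducing drug and no floxed allele, and do not say whether the wild-type mice carried a Cre transgene. Nothing in them says that each array came from a separate animal, so a p-value measures the spread between these arrays, which may be technical.

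The labels call all mice male, but sex-linked genes split the arrays. The Y-linked gene Ddx3y read 2.44 to 3.47 on 7 arrays and was at background, at most -5.22, on the other 17. Eif2s3y, also Y-linked, read 3.05 to 3.96 on the same 7 arrays and at most -1.36 on the other 17. Xist, the RNA that silences an X chromosome in females, was at background on those 7 arrays and well above it on all 17 others at its probe A_52_P113537. The arrays with Ddx3y were 1 of 3 Top2b-/- doxorubicin, 0 of 3 Top2b-/- PBS, 1 of 3 wild-type doxorubicin and 3 of 3 wild-type PBS arrays at 16 h. At 72 h they were 1 Top2b-/- PBS and 1 wild-type PBS array. Between genotypes in PBS at 16 h, the sex-linked split and the genotype therefore cannot be told apart. In wild-type cells at 16 h the split and doxorubicin cannot be fully told apart either.

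Estrogen receptor alpha is a nuclear receptor. Without hormone its ligand-binding domain is held by the Hsp90 chaperone system, and with hormone it recruits coactivators at target genes. A mutated form of the same domain is a widely used switch: fused to Cre recombinase, it keeps Cre out of the nucleus until tamoxifen is given. Such a fusion carries the coding sequence of the domain and not the untranslated 3′ end of the receptor mRNA. Heart muscle is one of the tissues in which inducible Cre lines of this kind are commonly used.

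The bright probe is a 60-base oligonucleotide at base 1225 of the transcript NM_007956, at chr10:5489352-5489411 on the minus strand of mm9. Its sequence is shown because the genotype pattern rests on this one oligonucleotide, which reads coding sequence of the ligand-binding domain. The capitals mark the single reading frame without a stop codon, which takes in all 20 codons.
A_55_P2030883: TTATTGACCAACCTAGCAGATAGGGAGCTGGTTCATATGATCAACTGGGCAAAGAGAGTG
The oligonucleotide has 45% G and C, and 0 other probes on the array share a run of 15 bases with it. It is printed at 1 spot per array. A stop-free frame is not particular to it, since A_51_P474658 and A_66_P138072 have 1 such frame each. A_52_P237077 has stop codons in all 3 frames.

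The other probes lie downstream in the transcript or in another cDNA. A_51_P474658 starts at base 1993 of the same transcript, at chr10:5345046-5345105, which is 768 bases further along the mRNA and 144306 bases away in the genome. A_52_P237077 starts at base 3983, at chr10:5343056-5343115. These last 2 probes are 1990 bases apart in both the transcript and the genome, so no intron separates their starts. A_66_P138072 was designed on the cDNA AK054182 and lies at chr10:5379218-5379277, 110134 bases from the bright probe. No annotation used here gives the exon or untranslated region of these 3 probes.

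Levels are the log2 of the processed signal minus the 75th percentile of the same array, so 0 is the level of a fairly bright spot. A probe called well above background passed the scanner software's own flag. At A_55_P2030883 the Top2b-/- arrays at 16 h read 5.86, 5.04 and 5.83 after doxorubicin and 5.91, 5.73 and 6.45 after PBS. Wild-type arrays at 16 h read -5.43, 0.60 and 1.05 after doxorubicin and -5.78, -5.95 and -5.48 after PBS. All 6 Top2b-/- arrays were therefore above all 6 wild-type arrays at 16 h, and the 4 lowest wild-type values were not well above background. The 3 wild-type PBS arrays held no measurable signal at this probe, and 2 of the 3 wild-type doxorubicin arrays did.

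At 72 h the same probe read 5.24, 5.93 and 6.35 in Top2b-/- cells after doxorubicin and 6.89, 6.70 and 7.10 after PBS. Wild-type cells at 72 h read 6.62, -2.06 and -4.37 after doxorubicin and 8.41, 8.58 and -6.18 after PBS. The genotypes overlapped at 72 h, because the highest values of the whole series, 8.41 and 8.58, came from arrays labelled wild type. The wild-type values of -4.37 and -6.18 were not well above background, while that of -2.06 was. On the linear scale of the scanner the 18 arrays above background ran between 58.6 and 63238 units, and the 6 arrays at background between 3.53 and 9.21 units.

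The range of A_55_P2030883 over the 24 arrays was 14.8 log2 units. A_51_P474658 ranged between -6.33 and -4.56 on Top2b-/- arrays and between -6.26 and -3.51 on wild-type arrays. Its 1 array well above background was the second wild-type doxorubicin array at 16 h, at -3.51, where the bright probe read 0.60. On the 3 brightest wild-type arrays, where A_55_P2030883 read 8.58, 8.41 and 6.62, A_51_P474658 read -4.39, -5.80 and -6.06. Strong signal at base 1225 was thus not accompanied by signal above background at base 1993 of the same transcript on those arrays.

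A_52_P237077, averaged over its 10 spots, ranged between -6.32 and -5.86 on Top2b-/- arrays and between -6.22 and -5.21 on wild-type arrays. A_66_P138072 ranged between -6.22 and -5.81 on Top2b-/- arrays and between -6.16 and -5.19 on wild-type arrays. Neither probe was well above background on any of the 24 arrays. Over the 24 arrays the Pearson correlation with A_55_P2030883 was -0.02 for A_51_P474658, -0.24 for A_52_P237077 and -0.24 for A_66_P138072. These correlations are a description over arrays that share groups and slides, and between values at background they have little meaning. No array had all 4 probes above background, so the response of the dim probes to Esr1 mRNA was not tested. Whether the RNA read by the bright probe came from the gene itself or from a fusion transgene was not tested either.

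By group means at 16 h, A_55_P2030883 was highest in Top2b-/- cells after PBS (6.03 ± 0.38, SD, n = 3) and next in Top2b-/- cells after doxorubicin (5.58 ± 0.47), and these neighbours overlapped. Wild-type cells followed at -1.26 ± 3.62 after doxorubicin and -5.74 ± 0.24 after PBS. In PBS at 16 h the Top2b-/- mean was 11.77 log2 units above the wild-type mean. Since no wild-type PBS array was above background, this is given as a bound: the probe was at least 750.1-fold brighter in Top2b-/- cells, set against the lowest signal that is well above background on each wild-type array. The slide that held both groups gave a difference of 11.56 over 2 Top2b-/- and 3 wild-type PBS arrays.

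At 72 h the order was Top2b-/- after PBS (6.90 ± 0.20), Top2b-/- after doxorubicin (5.84 ± 0.56), wild type after PBS (3.60 ± 8.47) and wild type after doxorubicin (0.06 ± 5.79). Both neighbouring pairs that include wild-type cells overlapped. The difference between Top2b-/- and wild-type PBS means was 3.29 log2 units, and without the fourth wild-type PBS replicate it was -1.59, so a single array set its direction. Within slides the same difference was -1.70 on the slide with replicates 2 and 3 and 13.28 on the slide with replicate 4, whose wild-type PBS array was at background.

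Doxorubicin was compared with PBS within a genotype using limma, fitted across all probes above background in at least 1 group and adjusted by the Benjamini-Hochberg method. In Top2b-/- cells at 16 h the bright Esr1 probe differed by -0.45 log2 units (SE 1.31, limma adjusted p = 1.0), against a share of 0.00395% of 25343 probes called in that comparison and 4.23% at an unadjusted p under 0.05. An exact two-sided permutation test of the 3 against 3 arrays gave p = 0.4, where 0.1 is the smallest p the design allows. The limma SE takes in the spread of the wild-type arrays at the same probe. Fitted on the Top2b-/- arrays alone, an alternative chosen after seeing the data, limma gave an SE of 0.29. The unadjusted p of that limma fit was 0.163 and its adjusted p 0.579. The difference was thus within the spread of the arrays. At 16 h the slide that held all 3 Top2b-/- doxorubicin arrays held only 1 of the Top2b-/- PBS arrays, and there the difference was -0.88.

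In Top2b-/- cells at 72 h all 3 doxorubicin arrays read below all 3 PBS arrays, by 1.06 log2 units in the mean. The exact permutation p was 0.1, the smallest the design allows. In limma the difference was -1.06 with an SE of 3.66 and an adjusted p of 1.0, and 0% of 26922 probes were called, with 2.26% at an unadjusted p under 0.05. That SE takes in the spread of the wild-type arrays at the same probe. Fitted on the Top2b-/- arrays alone, an alternative chosen after seeing the data, limma gave an SE of 0.30, an unadjusted p of 0.0109 and an adjusted p of 1.0. The direction was the same on both slides, at -1.21 and -0.75. In limma's test the probe was therefore not called.

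In wild-type cells at 72 h the doxorubicin mean was 3.54 log2 units below the PBS mean (SE 3.66, limma adjusted p = 0.614, exact permutation p = 0.7), where 2.21% of probes were called (0.854% upward, 1.36% downward). The groups overlapped. The difference was -6.21 on the slide with replicates 2 and 3, and on the slide with replicate 4 both arrays were at background, so it gave no direction. Without the fourth PBS replicate, which is the wild-type PBS array with Ddx3y, it was -8.43 with a limma adjusted p of 0.0646, the lowest of 0.0646 to 0.923 over the arrays left out in turn. In wild-type cells at 16 h all 3 PBS arrays were at background, and 2 of 3 doxorubicin arrays were above it, at 0.60 and 1.05. These 2 were the wild-type doxorubicin arrays at 16 h without Ddx3y. As the other doxorubicin array was at background too, no fold or bound is given for the group.

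Top2b itself was the check of the labels. Its probe read between 2.54 and 3.34 on Top2b-/- arrays and between 4.03 and 4.39 on wild-type arrays at 16 h. At 72 h it read between 2.13 and 3.07 on Top2b-/- arrays and between 3.25 and 3.65 on wild-type arrays. The genotypes did not overlap at either time. Among wild-type arrays Top2b ran between 3.25 and 4.38 on the 6 with Esr1 signal above background and between 3.29 and 4.39 on the 6 without, so these ranges overlapped almost in full. The labels used here do not say which part of Top2b was deleted, nor whether the probe lies in it.

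At 16 h the genotype characteristic of 4 arrays goes against their titles, and at 72 h that of 0 arrays does. In these 4 arrays the Esr1 level was 5.86 in the first Top2b-/- doxorubicin array, 6.45 in the third Top2b-/- PBS array, -5.43 in the first wild-type doxorubicin array and -5.48 in the third wild-type PBS array. Of these, both arrays titled Top2b-/- were far above background and both titled wild type were at background. As the gene was chosen by its levels in the 2 genotypes, its levels are no independent check of the titles. Top2b read 2.54 and 3.03 on the 2 arrays titled Top2b-/-, and 4.39 and 4.04 on the 2 titled wild type, in the same order. With genotype taken from the characteristic in place of the title, the PBS difference at 16 h was 3.81 in place of 11.77.

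Of the arrays with Ddx3y, 2 were Top2b-/- and 5 were wild type. All 5 of those wild-type arrays lacked Esr1 signal above background, and both Top2b-/- arrays had it. Of the 7 wild-type arrays without Ddx3y, 6 had Esr1 signal and 1 did not. Without the Top2b-/- array with Ddx3y at 16 h the doxorubicin difference of the bright Esr1 probe was -0.59, and without that at 72 h it was -1.15. The part of these arrays in the wild-type Esr1 pattern was not tested.

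Cell identity was read from marker genes. Myh6, the cardiac myosin heavy chain gene, read 10.12 to 10.81 on Top2b-/- arrays and 10.31 to 11.25 on wild-type arrays at its brighter probe. All 8 cardiomyocyte markers were well above background on all 24 arrays, with a summed level between 12.4 and 13.4. The adipocyte markers were nearly absent, with at most 1 of 3 above background. Fibroblast markers (6 to 7 of 7, summed level 3.44 to 7.03), endothelial markers (6 of 6, 3.94 to 5.31), smooth muscle markers (4 of 4, 4.15 to 6.98), macrophage markers (3 to 5 of 5, 1.73 to 3.91) and mesothelial markers (1 to 3 of 3, -1.71 to 1.59) were present too. Some of these sums moved with the comparisons: smooth muscle markers summed to 4.15 to 4.83 in wild-type cells after doxorubicin at 16 h, against 6.18 to 6.61 after PBS. Mesothelial markers summed to -0.49 to 0.37 in Top2b-/- cells after PBS at 16 h, against 0.97 to 1.57 in wild-type cells after PBS. In wild-type PBS replicates 2, 3 and 4 at 72 h, mesothelial markers summed to -1.41, -1.71 and 1.59. Fibroblast markers there summed to 4.55, 4.41 and 6.25, and the bright Esr1 probe was at background on replicate 4 only. Fibroblast markers were also highest in replicate 4 of Top2b-/- cells after PBS at 72 h, at 6.21. The part of these markers in the Esr1 levels and in the gene list counts was not tested. On bulk RNA such as this, fewer cells of a type and less RNA per cell cannot be told apart. The 75th percentile of processed signal was 146 to 282 units per array, and 42.9% to 52.6% of spots were well above background.

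The probes whose levels ran most like the bright Esr1 probe were ranked by Pearson correlation over the 24 arrays, among 27422 probes, where the median correlation was 0.04. Pyroxd2, an oxidoreductase gene, came first at 0.89, followed by Atp10d, a phospholipid flippase gene, at 0.87 and Upf3b, a gene of nonsense-mediated decay, at 0.85. The next were Srsf9 (0.84), Rnaseh2a (0.84), Syngr1 (0.83), Ociad2 (0.83), Lipo2 (0.82), Tnnc1 (0.81) and Myo9b (0.81). Tnnc1 encodes cardiac troponin C, the calcium sensor of the contractile filament. The arrays share groups and slides, so these correlations carry no p, and a difference between genotypes is enough to give one. Within the 12 Top2b-/- arrays alone the correlations of these 10 probes ran between -0.82 (Atp10d) and 0.56 (Tnnc1). Within the 12 wild-type arrays alone they ran between 0.69 (Tnnc1) and 0.86 (Lipo2).

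Pyroxd2 read between -0.29 and 0.50 on Top2b-/- arrays and between -6.27 and -0.67 on wild-type arrays. Its 3 highest wild-type arrays at 72 h, at -0.67, -0.83 and -0.84, were the 3 with the highest Esr1 level. Its wild-type doxorubicin arrays at 16 h read -5.24, -0.81 and -6.27, so replicate 3 departed from Esr1, which was 1.05 there. Atp10d read between -1.21 and 0.05 on Top2b-/- arrays and between -3.97 and -0.52 on wild-type arrays. Within the 12 wild-type arrays alone its correlation with Esr1 was 0.81, and within the 12 Top2b-/- arrays -0.82. Tnnc1 read between 8.33 and 9.01 on Top2b-/- arrays and between 7.25 and 8.44 on wild-type arrays.

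The most unlike probes were Bcar3 (-0.91), Adamts4 (-0.86), Zfp386 (-0.85), Car2 (-0.85) and Fzd6 (-0.83). Bcar3, a signalling adaptor linked to antiestrogen resistance in human breast cancer cells, read between -2.24 and -1.20 on Top2b-/- arrays and between -2.06 and 0.17 on wild-type arrays. The wild-type PBS arrays at 72 h read -1.74, -2.06 and 0.07 for Bcar3, and the first 2 of these are the arrays with Esr1 at 8.41 and 8.58. Its correlation with Esr1 was -0.93 within wild-type arrays and 0.14 within Top2b-/- arrays. Adamts4, an aggrecan-cleaving protease gene, read between -6.40 and -4.72 on Top2b-/- arrays and between -5.81 and 2.59 on wild-type arrays. Adamts4 was well above background on 9 of the 24 arrays, Lipo2 on 16, Pyroxd2 on 17 and Atp10d on 20. Their correlations therefore rest partly on background values. Top2b had a correlation of -0.68 and Ddx3y of -0.61 with the bright Esr1 probe.

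The rest of the receptor pathway was described with a list of 75 gene names, made up of related receptors, chaperones of the ligand-binding domain, coregulators, estrogen-responsive genes and enzymes of estrogen synthesis and inactivation. Of these, 71 were on the array and 57 were tested at each time. In Top2b-/- cells after doxorubicin at 16 h, limma called 0 of 57 genes, where 0.00395% of all probes were called. At an unadjusted p under 0.05 there were 2, against 4.23% of probes, and the median was 0.01 log2 units, as over all genes. At 72 h it called 0 of 57, where 0% of probes were called, with 3 at an unadjusted p under 0.05, against 2.26% of probes. The median there was 0.04, against -0.01 over all genes.

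In wild-type cells at 16 h limma called 23 of 57 genes between doxorubicin and PBS, 6 upward and 17 downward. Over all probes 27.6% were called (13.3% upward, 14.2% downward). At an unadjusted p under 0.05 there were 32 of 57, against 39.9% of probes, and the list median was -0.08 against -0.02 over all genes. Ddx3y was above background on 1 of 3 of these doxorubicin arrays and on 3 of 3 PBS arrays. The part of that split in the calls was not tested. Of the 4 receptors tested, 3 fell: Esrrg by 1.33, Esrra by 0.92 and Esrrb by 1.73 log2 units (limma adjusted p = 0.00312, 0.0201 and 0.0331). These estrogen-related receptors bind no estrogen and control energy metabolism genes in heart muscle. Esr2, the gene of estrogen receptor beta, differed by 0.53 (adjusted p = 0.0737).

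Among the chaperones at 16 h in wild-type cells, Fkbp5, an immunophilin of steroid receptor complexes, rose by 3.14. It read 4.46, 4.08 and 4.56 after doxorubicin, against 0.55, 1.14 and 2.00 after PBS (SE 0.44, limma adjusted p = 0.000768). Fkbp4, its paralog in the same complexes, fell by 0.85 (adjusted p = 0.0148). Myc, which estrogen induces in several tissues, rose by 2.65, and Vegfa, the angiogenic growth factor, fell by 1.72 (adjusted p = 0.00581 and 0.000136). Of 19 coregulators 9 were called, 2 upward and 7 downward, where 27.6% of all probes were called (13.3% upward, 14.2% downward). Among those called downward were Gata4, a cardiac transcription factor, by 1.03, and Carm1, an arginine methyltransferase, by 0.76.

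In wild-type cells at 72 h 6 of 57 genes changed, 3 in each direction, where 2.21% of all probes were called (0.854% upward, 1.36% downward). At an unadjusted p under 0.05 there were 20 of 57, against 23.2% of probes, and the list median was -0.19 against -0.08 over all genes. The complement gene C3, which estrogen induces in rodent uterus, rose by 2.91, and Hsd17b11, a steroid dehydrogenase, rose by 1.59. Fkbp4 fell by 1.28, at 2.71, 2.08 and 2.24 after doxorubicin, against 3.52, 3.78 and 3.57 after PBS (SE 0.22, limma adjusted p = 0.0303). Stc2 fell by 1.19 and Hsd17b4 by 0.61. The sixth gene, Gata3, was at background on all wild-type PBS arrays, and its bound was at least 1.54-fold higher after doxorubicin (limma adjusted p = 0.0279). It passed the filter through the doxorubicin arrays alone, so its p, which uses background values, is no support for it. The 6 calls depended on the fit: 0 were made with the wild-type arrays fitted alone, and 17 were made with the replicate number as a block.

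Between genotypes in PBS at 16 h 8 of 57 genes differed, 5 higher and 3 lower in Top2b-/- cells, where 11.7% of all probes were called (6.47% higher, 5.27% lower). At an unadjusted p under 0.05 there were 16, against 27.3% of probes. The list median was 0.10 against -0.01 over all genes. Hsd17b7, an enzyme of estradiol and cholesterol synthesis, was at background in all 3 Top2b-/- arrays, at -3.76, -3.76 and -3.75, against 1.05, 1.49 and 1.60 in wild-type arrays. It was at least 34.0-fold brighter in wild-type cells (limma adjusted p = 5.14e-07). Since it passed the filter through the wild-type arrays, where it is high, that p is no support for the difference. Hsp90aa1, the inducible Hsp90 that holds the ligand-binding domain, was higher by 1.33 in Top2b-/- cells. It read 5.81, 5.69 and 5.77 there, against 3.90, 4.50 and 4.88 in wild-type cells (SE 0.23, limma adjusted p = 0.00500).

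Fkbp4 was lower by 1.16 log2 units in Top2b-/- cells (2.80 ± 0.21 against 3.97 ± 0.04 in wild-type cells, SD, n = 3, limma adjusted p = 0.00761). Hsd17b11 was higher by 1.37 and Xbp1 by 0.64, while Ckb was lower by 0.58. At 72 h Hsd17b7 was the only list gene called between genotypes in PBS, where 2.25% of all probes were called (1.14% higher, 1.11% lower). At an unadjusted p under 0.05 there were 7 of 57, against 12.8% of probes. The Hsd17b7 probe used at 72 h, A_55_P1997936, was not the one used at 16 h, A_52_P566605. It read -3.80, -3.94 and -4.06 in Top2b-/- cells, with 1 array above background, against -0.93, -1.03 and 0.55 in wild-type cells. The difference was -3.46 (SE 0.38, limma adjusted p = 0.000784). As 2 of the 3 Top2b-/- values were at background, its size rests partly on values with no measured signal. Of the groups compared, only wild type had all 3 arrays above background, so that p is no support for the difference. The genotype comparisons and the doxorubicin comparisons of wild-type cells share their wild-type PBS arrays.

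The neighbourhood of Esr1 on chromosome 10 was read from 22 gene names with a probe within 1 Mb of an Esr1 probe, of which 12 were tested at 16 h and 14 at 72 h. Between genotypes in PBS, where the bright Esr1 probe differed most at 16 h, 0 of the 12 neighbours were called at that time in limma, where 11.7% of all probes were, with 5 at an unadjusted p under 0.05, against 27.3% of probes. At 72 h 1 of 14 was called, where 2.25% of all probes were: Rmnd1, a gene of mitochondrial translation, at 3.27, 3.21 and 3.17 in Top2b-/- cells, against 4.99, 4.64 and 4.54 in wild-type cells (difference -1.50, SE 0.18, limma adjusted p = 0.00132). The Rmnd1 difference at 16 h was -0.99 with an adjusted p of 0.170. After doxorubicin 0 neighbours were called in Top2b-/- cells at either time, in limma, with 0 at an unadjusted p under 0.05. In wild-type cells at 16 h 4 of 12 were called, near the 27.6% of all probes, and 8 had an unadjusted p under 0.05, against 39.9% of probes. At 72 h 0 of 14 were called in limma, where 2.21% of all probes were, and 3 had an unadjusted p under 0.05, against 23.2% of probes. Of the 4 at 16 h, Syne1, a nuclear envelope gene, fell by 0.66 and Myct1 by 0.51, while 5330421C15Rik rose by 0.92, with overlapping groups, and a probe for an unnamed transcribed region rose by 1.49.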

How the data were processed

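Scanner output was deposited for each array; the file headers name Feature Extraction 10.7.3.1 (Agilent) as its source, and its probe coordinates are on mm9. It holds the processed intensity of each spot, which the authors' software had background-subtracted and detrended, on a linear scale with no scaling between arrays, beside the raw mean and background intensity and the flags for spots well above background. The deposited value table is a ratio, the processed signal divided by the array median, as found by setting both side by side (largest log2 difference 5.17e-06). Saturated spots numbered 0, and the 89 to 277 outlier spots per array were left out. The number of arrays limits the precision.

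From these, log2 of the processed signal minus the 75th percentile of the array was taken, spots of a probe were averaged, and control spots were dropped. Probes well above background on all 3 arrays of a group were fitted with limma 3.58.1 in R 4.3.3 (12 arrays and 4 groups per time), adjusted by Benjamini-Hochberg over probes with a threshold of 0.05, after the procedure was tested on simulated data. A list gene took its brightest kept probe at each time, so the probe can differ between times. The shares given beside the list counts are over all kept probes, so genes and probes are unlike units there. Groups follow the sample titles. The members, the gene lists and the rule for named genes (all Esr1 probes, the 10 most like and 5 most unlike named probes, Top2b, sex-linked checks, genes within 1 Mb, and up to 4 called genes per list and comparison) were chosen with earlier results of these data known. Of the probes ranked above the named ones, 11 like and 1 unlike had no gene symbol. Alternatives were array median scaling, normexp (offset 50) with quantile normalization, no filter, slide or replicate number as a block, genotype from the characteristic, each array left out, and, chosen after seeing the data, 1 genotype fitted alone. Since 16 h and 72 h arrays sat on separate slides, time and slide cannot be told apart, and the times were not compared. Some of the called list genes are not reported here by name.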

Additional observations from a re-analysis of the deposited data

How the results depend on the processing

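No alternative brought the bright Esr1 probe past the threshold in its 3 tested comparisons. Leaving out each array gave -0.60 to -0.18 and -1.31 to -0.76 log2 units in Top2b-/- cells after doxorubicin at 16 h and 72 h. In wild-type cells at 72 h it gave -8.43 to -1.05. Untested, the wild-type value at 16 h ran between 3.32 and 6.56 with an array left out and was 1.96 with normexp and quantile normalization. It rests partly on background values. The genotype difference in PBS, also untested, ran between 11.56 and 11.92 at 16 h. At 72 h it ran between -1.59 and 5.78 and turned direction only without the fourth wild-type PBS replicate. That difference at 16 h was 7.77 with normexp and quantile normalization, whose offset raises dim values, and 3.81 with genotype from the characteristic. With a replicate block the adjusted p was 1.0 and 0.995 in Top2b-/- cells at 16 h and 72 h and 0.486 in wild-type cells at 72 h. Deviations of arrays with the same number correlated at -0.12 to 0.25 at 16 h (mean 0.05, against -0.02 for other numbers). At 72 h they correlated at 0.01 to 0.72 (mean 0.35, against -0.17), so arrays with the same number were more alike there. The main fit did not take the numbers as pairs, and the replicate block was run as an alternative.

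Of the gene list, the calls in wild-type cells at 16 h were 0 with genotype from the characteristic, 10 with wild-type arrays fitted alone and 15 to 27 with an array left out (15 without PBS replicate 2), against 23. In wild-type cells at 72 h, against 6, they were 10 with array median scaling (3 up, 7 down), 15 with slide and 17 with replicate number as a block, 0 with no filter, 0 with wild-type arrays fitted alone and 0 to 8 with an array left out (0 without PBS replicate 2 or 3 or doxorubicin replicate 3 or 4). Median scaling there called 186 probes up and 880 down, against 230 and 366, and moved the median of all genes to -0.18, against -0.08. Between genotypes in PBS at 16 h, against 8, they were 13 with normexp and quantile, 4 with no filter, 0 with genotype from the characteristic and 4 to 8 with an array left out (4 or 5 without Top2b-/- replicate 1 or 2 or wild-type replicate 1 or 2); at 72 h, 1 throughout. The list calls in Top2b-/- cells were 0 in all alternatives. Over all probes, calls in wild-type cells at 72 h numbered 3177 with slide and 3852 with replicate number as a block, 1066 with median scaling, 1234 with normexp and 25 with no filter, against 596. Between genotypes in PBS they numbered 1609 with the slide block and 1513 with no filter at 16 h, against 2975, and 1137 with the slide block, 1272 with the replicate block and 371 with no filter at 72 h, against 605. In Top2b-/- cells after doxorubicin at 16 h they numbered 6 with the slide block, against 1. With genotype from the characteristic they were 0 in all 3 comparisons at 16 h. Causes of these shifts were not tested.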
